A study of Caenorhabditis elegans with 3 samples.

Results

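The regions described here are the strongest EGL-27 peaks on the X chromosome of Caenorhabditis elegans first-stage (L1) larvae. They were selected on signal: the relaxed peak list of the pooled replicates, in build ce11, was ranked by the signal value of each peak, mitochondrial peaks were dropped, and the first 1500 were kept. Of these 1500 peaks, 337 (22.5%) lay on X, and they were set against the other 1163, which lay on chromosomes I to V. The signal is the height the authors' peak caller gave each peak, and the summit is the position that the list names within it.

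Chromatin immunoprecipitation with sequencing (ChIP-seq) was carried out on whole L1 worms, both sexes pooled, of strain OP177, genotype unc-119(ed3) III; wgIs177. Both the unc-119 mutation and wgIs177, an integrated transgene that expresses EGL-27 joined to green fluorescent protein, were present in every sample. A note on replicate 3 gives a C-terminal GFP-FLAG tag. The labels disagree on what was precipitated: the antibody field names egl-27, while the description names the eGFP fusion, so whether untagged EGL-27 adds to the signal is not known. All 3 biological replicates formed a single group, and no second genotype, stage or untagged strain was analysed here. Worms of replicates 1 and 2 were supplied by a stock centre and their labels give fragments of 150 to 350 bp, while those of replicate 3 were the submitting laboratory's own and were sonicated with a microtip. The line is a single integrated transgene, the signal is averaged over all tissues of the larva, and cells that bind EGL-27 strongly cannot be told apart from a larger number of cells that bind it weakly.

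EGL-27 resembles the metastasis-associated subunits of nucleosome remodelling and deacetylase complexes, has a GATA-type zinc finger, and is known for roles in Wnt signalling, cell polarity and patterning. In C. elegans the X chromosome is unusual among the chromosomes. A dosage compensation complex related to condensin loads onto both X chromosomes of hermaphrodites at recruitment sites that carry a short shared motif, spreads from there and lowers transcription along the chromosome. X is also poor in genes needed by the germ line and rich in tRNA genes.

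Of 6 fixed motifs searched around the summits, GCGCAGGG, the core letters of the motif at dosage compensation recruitment sites, was the one with no match within 50 bp of an autosomal summit. An exact match lay within 50 bp of the summit, on either strand, in 11 of the 337 X peaks and in 0 of the 1163 autosomal peaks. Within 100 bp of the summit it was in 13 X peaks and 2 autosomal peaks. The 11 peaks held 13 copies, and all of them are shown, read on the strand of the motif, with GCGCAGGG in capitals and 10 bases on each side (RefSeq WBcel235, the sequence of ce11). Names count X peaks from the highest signal down. Printing every copy, where at most 4 had been planned for each motif, was chosen after the counts were seen.
X3, intergenic, chrX:11094216-11094243, minus strand: ggaaccattcGCGCAGGGacacctcact
X9, intron of mom-1, chrX:6296538-6296565, plus strand: tttacatttgGCGCAGGGggtcaccata
X9, a second copy, chrX:6296566-6296593, plus strand: gataggtatcGCGCAGGGaagatttacc
X14, intergenic, chrX:8036391-8036418, minus strand: attttttatcGCGCAGGGacgtatgtcg
X14, a second copy, chrX:8036425-8036452, plus strand: tttttccatcGCGCAGGGaacccttcga
X22, intergenic, chrX:4209256-4209283, minus strand: tgccgctatcGCGCAGGGacacctcttt
X23, intergenic, chrX:806664-806691, plus strand: tgcgattatcGCGCAGGGgtgtttgttg
X26, promoter of nspc-17, chrX:14525890-14525917, minus strand: attgcctatcGCGCAGGGacagatgtgg
X48, intron of Y41G9A.17, chrX:2997113-2997140, minus strand: taaatttatcGCGCAGGGaggaagtagc
X51, coding exon of F19H6.6, chrX:12363029-12363056, minus strand: tgagttatagGCGCAGGGtcttgaggat
X80, promoter of R04E5.9, chrX:8811095-8811122, minus strand: aacacgcgacGCGCAGGGagagggacgc
X108, promoter of ins-39, chrX:1345046-1345073, plus strand: aatgtcattcGCGCAGGGcagctgagcc
X152, intergenic, chrX:13514548-13514575, plus strand: tacctttatcGCGCAGGGatattgaaat

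For comparison, 61-base windows centred on the summit are shown for strong X peaks without this motif, all on the plus strand. The first pair holds the GA hexamer (GAGAGA or its complement), the next pair holds the 9-base motif CTGCGTCTC (or its complement), which is known from regions bound by many factors at once, and the last pair holds none of the 3. Capitals mark the motif.
X1, promoter of puf-9, chrX:5841220-5841280: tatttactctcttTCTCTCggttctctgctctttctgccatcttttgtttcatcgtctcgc
X5, upstream of sma-9, chrX:10766251-10766311: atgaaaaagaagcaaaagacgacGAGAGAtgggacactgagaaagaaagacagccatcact
X40, promoter of cebp-1, chrX:1454536-1454596: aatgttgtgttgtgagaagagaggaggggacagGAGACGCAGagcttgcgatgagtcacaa
X90, intron of daf-12, chrX:10637573-10637633: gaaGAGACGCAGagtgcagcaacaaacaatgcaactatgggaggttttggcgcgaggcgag
X2, promoter of ftt-2, chrX:11606043-11606103: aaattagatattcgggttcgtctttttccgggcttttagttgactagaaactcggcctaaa
X4, intergenic, chrX:13700863-13700923: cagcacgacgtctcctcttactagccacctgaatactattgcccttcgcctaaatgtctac

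X held the highest density of kept peaks, with 19.02 peaks per Mb, against 9.51 to 18.3 per Mb on the autosomes. It makes up 17.7% of the nuclear sequence and has the lowest density of protein-coding genes, 154 per Mb against 188 to 239 per Mb on the autosomes. Ranking each replicate's own list by signal gave 344, 314 and 365 X peaks among its 1500 highest in replicates 1, 2 and 3, a mean share of 22.7% ± 1.71 (SD, n = 3). The share on X was highest at the top of the list: X held 36 of the first 100 peaks, 126 of the first 500, 94 of ranks 501 to 1000 and 117 of ranks 1001 to 1500. These counts describe the selection, so they carry no test.

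Signals of the X members ran from 22.6 to 139.9 with a median of 31.5, against 22.6 to 252.5 with a median of 30.5 for the autosomal peaks. At the threshold, the last X peaks inside were at rank 1488 with a signal of 22.67, in the promoter of mdt-1.2, and at rank 1497 with 22.62, in the promoter of the linker histone gene his-24. The next X peaks outside had signals of 22.56 and 22.48 at ranks 1506 and 1516.

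The strongest X peaks lay at a mixed set of genes. The highest was in the promoter of puf-9, a Pumilio-family RNA-binding protein, 342 bp upstream of its 5′ end (summit at chrX:5841250), with a pooled signal of 139.9 and signals of 19.5, 44.8 and 80.7 in replicates 1, 2 and 3. The promoter of ftt-2, which encodes a 14-3-3 protein, held 2 of the first 8 members, X2 and X8, with pooled signals of 135.9 and 107.1 and summits 256 bp apart. X2 had signals of 40.05, 51.2 and 62.7 in replicates 1, 2 and 3, and X8 had 17.4, 40.2 and 46.9. The intergenic peak X5, 3001 bp upstream of sma-9, a zinc-finger cofactor of BMP signalling, had a pooled signal of 130.6 and replicate signals of 27.9, 47.3 and 59.4. Replicate signals come from separate lists, so their order shows only that each of these peaks was high within every list.

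Others among the first 15 were in the promoters of epn-1, an endocytic adaptor (X7, 108.5), of the elongation factor gene eef-1A.2 (X11, 98.2) and of serp-1.1 (X12, 97.3). X10, with a signal of 101.5, was in an intron of the nuclear hormone receptor gene nhr-3, and X13, with 97.1, was 8166 bp upstream of nhr-1. X4 (132.2) and X6 (112.3) were intergenic, 6014 bp upstream of K02D3.1 and 1404 bp downstream of the 5′ end of F55G7.5. Further intergenic peaks in this group were X15 (93.4), 4523 bp upstream of R03E9.2, and X3 (133.8) and X14 (95.1), both with copies of GCGCAGGG. The strongest introns beside X10 were that of mom-1, a Wnt-processing gene (X9, 104.5), and one in abts-4 (X20, 85.0). In annotated non-coding genes the strongest were X32 (72.6), X37 (69.1) and X44 (63.7), nearest to nfki-1, dlg-1 and mdl-1.

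Of the 12 features compared, GCGCAGGG had the smallest p. Its share was 3.26% of X peaks (exact 95% binomial interval 1.64 to 5.77) against 0 of 1163 autosomal peaks (exact 95% interval 0 to 0.317). With 3 counts over the whole autosomal group as a floor (0.258%), the observed X share was 12.7-fold higher. The X share has its own counting error, so this ratio is not a lower limit. The difference of 3.26 percentage points (95% interval 1.79 to 5.75) passed Fisher's exact test, two-sided, with an adjusted p of 7.8e-07 over those 12. When only summits within the highest peaks of 2 replicates were kept, the difference was larger, from 6.20 to 8.51 points, and passed each time. Leaving replicate 1, 2 or 3 out of this filter kept 9, 8 and 8 peaks with the motif, among 130, 129 and 94 X peaks. The pooled ranking beneath it still used all 3 replicates. Peaks with the motif had a median pooled signal of 78.0, against 31.2 for the other X peaks. Keeping only high peaks therefore favours them, so nothing is read from the larger size. In each replicate's own 1500 highest peaks the motif was in 7, 8 and 6 X peaks, against 0, 1 and 0 autosomal peaks, a mean difference of 2.05 ± 0.41 points (SD, n = 3). Peaks are not replicates of a condition, so these p-values and intervals cover counting error over peaks, not the spread between worms.

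The 11 peaks lay in several annotation classes. Within the searched window of 50 bp on each side, the middle of the motif lay 4 to 44 bp from the summit, with a median of 25 bp, and 6 copies were on the plus strand and 7 on the minus strand. Of the 11 peaks, 5 were intergenic, 3 in promoters, 2 in introns and 1 in a coding exon. Among all 337 X peaks, 97 were intergenic, 160 in promoters, 57 in introns and 2 in coding exons, and the classes were not compared. Their pooled signals ran from 33.5 to 133.8 with a median of 78.0, against a median of 31.2 for the other 326 X peaks. There were 5 of them among the first 25 X peaks and 9 among the first 100. Because signal selected the members, the signals are a description and were not tested.

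All 11 were listed in all 3 replicates, as were 66.8% of all X peaks and 68.6% of the 1500. Peak X3, intergenic and 3999 bp from the 5′ end of W02H3.3, had signals of 24.6, 45.1 and 62.1 in replicates 1, 2 and 3. X9, in the mom-1 intron with 2 copies side by side, had 26.2, 29.04 and 52.3. X14, which also held 2 copies, lay 4898 bp upstream of xol-1, the switch gene of sex determination, and had 21.3, 42.1 and 41.3. X152, the lowest of the 11 by pooled signal, had 4.34, 11.7 and 9.64, and X108 was lower in replicates 1 and 2, with 3.54 and 10.5. In replicate 1 the 11 peaks spanned 3.54 to 26.2 with a median of 13.2, while the other X peaks listed there spanned 2.00 to 40.05 with a median of 7.10. Both groups overlapped widely in every replicate, and the 11 had the higher median in each (29.04 against 12.96 in replicate 2, 35.2 against 16.5 in replicate 3). Among the 1500 highest peaks of a replicate, 8 of the 11 summits were found in all 3 replicates and 9 in at least 2. Of all X summits 24.6% were found in all 3, and of all 1500 summits 21.3%. The 11 peaks had high pooled signals, so these counts are a description and were not tested.

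**Figure D1:**
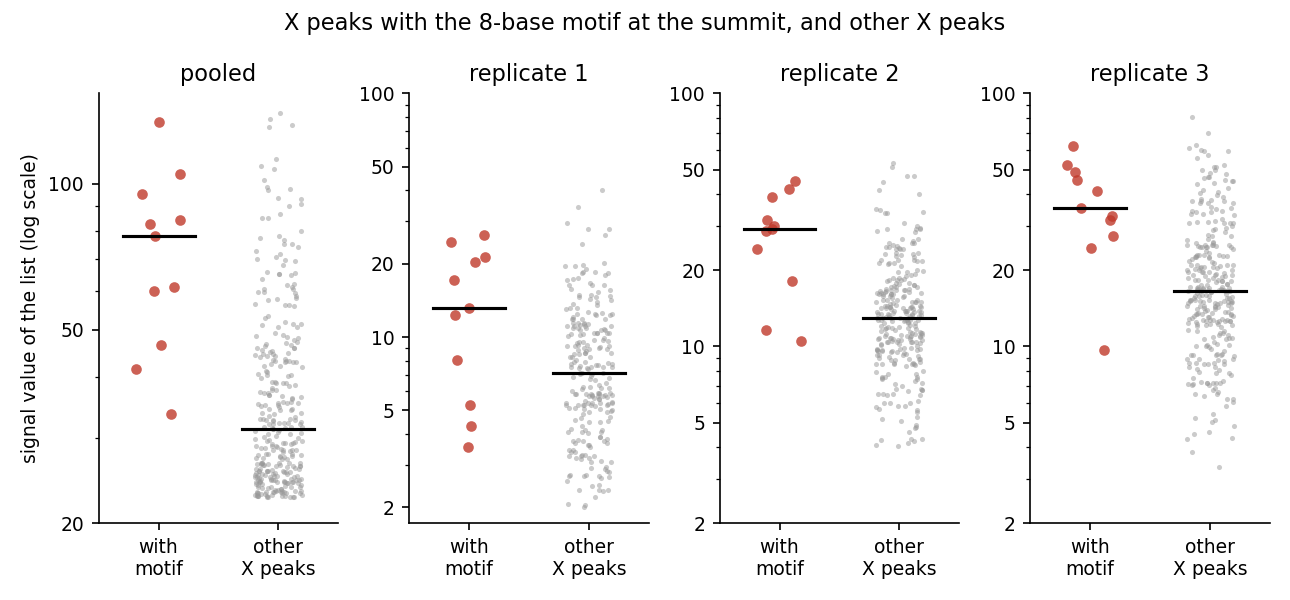
Signal values, on a log scale, of the 11 X peaks with GCGCAGGG within 50 bp of the summit (red) and of the other X peaks (grey) in the pooled list and in each replicate's list; each point is 1 peak and black lines are medians. The 11 peaks have medians of 78.0, 13.2, 29.04 and 35.2 in the 4 lists, against 31.2, 7.10, 12.96 and 16.5 for the other X peaks, and the ranges overlap in every list.

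The motif was also counted from its own side, over every copy in the genome. These counts use the same kept peaks and the replicates behind them, so they are not separate support. GCGCAGGG occurs 81 times on X (4.57 per Mb) and 233 times on the autosomes (2.82 per Mb), and tiled 101-bp windows held it in 0.0388% of cases on X and 0.0263% on the autosomes. Of the 81 X copies, 20 (24.7%) lay inside 1 of the 1500 kept peaks, against 4 of the 233 autosomal copies (1.72%). Kept peaks cover 0.721% of X sequence and 0.540% of autosomal sequence. The share of copies inside any relaxed peak was 33.3%, 39.5% and 49.4% on X in replicates 1, 2 and 3, against 9.01%, 12.9% and 11.2% on the autosomes. Relaxed peaks covered similar parts of both, 6.98%, 11.6% and 12.7% of X sequence and 6.20%, 11.7% and 11.1% of autosomal sequence. In every replicate list the share of X copies inside peaks was thus well above the covered share. For the autosomal copies the shares were closer, and they lay furthest apart in replicate 1, at 9.01% against 6.20%. In the kept peaks the share of autosomal copies (1.72%, 4 copies) was also above the covered 0.540%. Copies on X outside every pooled relaxed peak were the larger part, since 34 of the 81 (42.0%) were inside one.

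**Figure D2:**
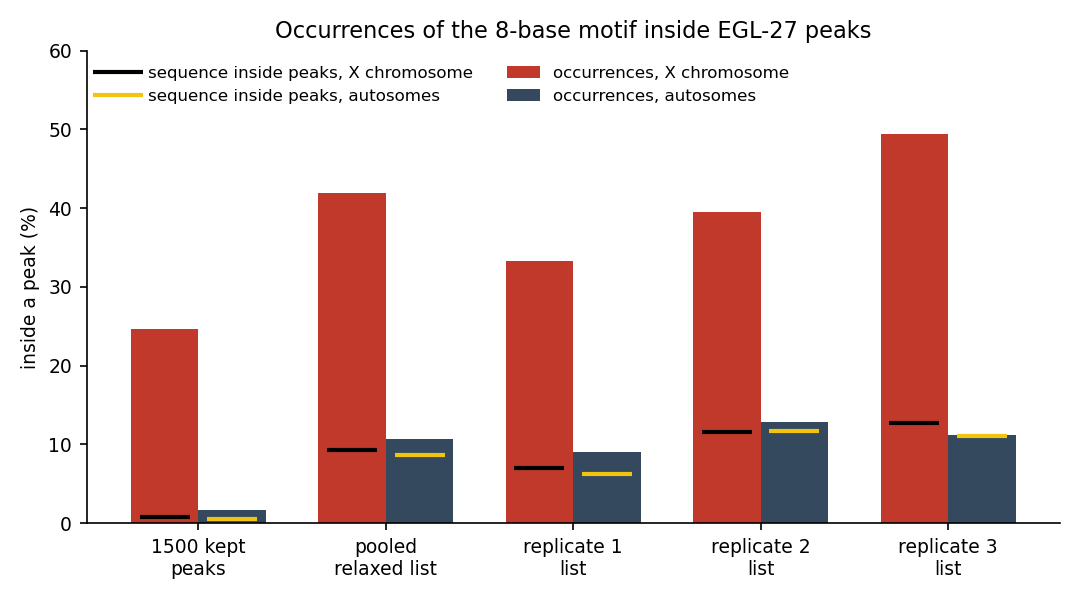
Percentage of all copies of GCGCAGGG on X (red, 81 copies) and on the autosomes (dark, 233 copies) that lie inside the 1500 kept peaks, the pooled relaxed list and each replicate's relaxed list; short lines give the percentage of X (black) and autosomal (yellow) sequence that those peaks cover. X copies lie inside replicate peaks in 33.3% to 49.4% of cases and autosomal copies in 9.01% to 12.9%.

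A search that did not start from a chosen motif gave the same letters. It used the same windows of the same peaks, and its count for GCGCAGGG is the same 11 against 0, so it is not separate support. All 4407 8-mers found at 8 or more of the 1500 summits were compared between X and autosomal peaks, with Benjamini-Hochberg adjustment, and 4 of them (0.0908%) had an adjusted p under 0.05. These were GCGCAGGG (adjusted p = 0.00029), CGCGCAGG (12 X peaks and 3 autosomal peaks, adjusted p = 0.0072), CGCAGGGA (10 and 2, adjusted p = 0.014) and TCGCGCAG (10 and 2, adjusted p = 0.014), each counted with its complement and tested by Fisher's exact test. All 4 were more frequent on X and they overlap, joining into TCGCGCAGGGA. The next 8-mer had an adjusted p of 0.13. The joined run occurs 13 times on X and 2 times on the autosomes, and 10 of the 13 X copies lay inside kept peaks. In replicates 1, 2 and 3, 12, 11 and 11 of the 13 X copies lay inside relaxed peaks, and 0, 1 and 0 of the 2 autosomal copies. Within 50 bp of the summit the exact run was in 7 X peaks and 0 autosomal peaks. With up to 1 mismatch it was in 12 X peaks and 2 autosomal peaks, and with up to 2 mismatches in 18 and 28. Since the run was built from these peaks, its counts describe them and support nothing further.

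Nearby tRNA genes were the next feature that differed. A tRNA gene lay within 500 bp of the summit of 33 X peaks (9.79%), against 32 autosomal peaks (2.75%), a difference of 7.04 points (95% interval 4.09 to 10.8; odds ratio 3.84; Fisher's exact test, two-sided, adjusted p = 2.0e-06). Each replicate's own highest peaks gave 16, 22 and 38 such peaks on X, against 21, 21 and 28 on the autosomes, a mean difference of 5.34 ± 2.56 points (SD, n = 3). The summit was inside the tRNA gene in 9 of the 33 X peaks and 11 of the 32 autosomal ones, and the median distance was 39 bp on X and 18 bp on the autosomes. A transfer RNA gene is short and carries its own internal promoter, to which RNA polymerase III is recruited.

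X is also richer in tRNA genes, and how far this accounts for the tRNA difference was not tested. X has 276 annotated tRNA genes, 15.6 per Mb, against 3.73 to 4.64 per Mb on the autosomes, so 1.38% of X sequence and 0.398% of autosomal sequence lies within 500 bp of one. Relative to that sequence, the kept peaks near a tRNA gene were 7.11-fold enriched on X and 6.92-fold on the autosomes. The authors' list thresholded on the irreproducible discovery rate was less even. There, 17 of 169 X peaks (10.1%) and 7 of 535 autosomal peaks (1.31%) had a tRNA gene within 500 bp. Enrichment over sequence was not computed for that list. Counted per gene, 40 of 276 X tRNA genes (14.5%, exact 95% interval 10.6 to 19.2) had a kept summit within 500 bp, against 37 of 336 autosomal ones (11.0%, 7.87 to 14.9). That difference did not pass Fisher's exact test, two-sided (odds ratio 1.37, p = 0.22, added after the counts were seen). Neighbouring tRNA genes share peaks, so genes are not independent here.

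**Figure D3:**
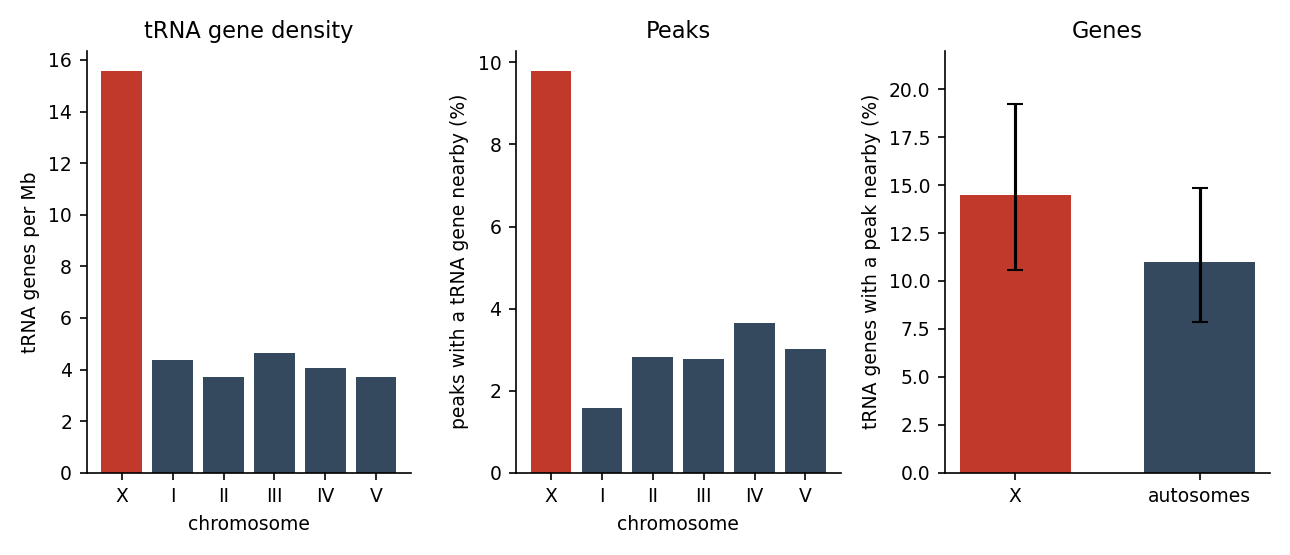
Left, tRNA genes per Mb on X (red) and on chromosomes I to V (dark); middle, percentage of kept peaks with a tRNA gene within 500 bp on each chromosome; right, percentage of tRNA genes with a kept summit within 500 bp, with exact 95% binomial intervals. X stands at 15.6 genes per Mb and 9.79% of peaks, but at 14.5% of genes against 11.0% on the autosomes, with overlapping intervals.

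The tRNA-side X peaks were of ordinary strength. Their median signal was 32.1, against 31.5 for the other X peaks. In the authors' list thresholded on the irreproducible discovery rate (IDR) were 17 of the 33, and 7 of the 32 autosomal ones. That list held 50.1% of all X peaks and 46.9% of all 1500 peaks. The strongest was X14, 270 bp from C18A11.t2, which is also 1 of the peaks with GCGCAGGG. Next were X57, in the promoter of ZK1193.2 and 110 bp from R04A9.t1, with a pooled signal of 57.8 and replicate signals of 8.49, 18.6 and 33.9, and X62, 39 bp from M02F4.t1, with 55.9 and replicate signals of 7.50, 29.04 and 18.7. By class, 13 were intergenic, 8 in promoters, 6 in introns and 6 in non-coding genes. Copies of a tRNA gene resemble each other, and over 50% of the window recurred elsewhere in the genome in 8 of the 33 X windows and 12 of the 32 autosomal ones, so reads there may be shared between copies. Without repeated windows the difference was 5.84 points and passed the test. For other small RNA genes the counts were lower on X and were not tested. Of 337 X summits, 0 were within 500 bp of a snoRNA gene (3 counts would be 0.890%), against 48 autosomal summits (4.13%). X has 33 annotated snoRNA genes against 313 on the autosomes. For snRNA genes the counts were 1 on X and 20 on the autosomes, with 3 and 126 genes.

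X peaks held the GA hexamer and the 9-base motif less often. GAGAGA lay within 50 bp of 100 X summits (29.7%), against 439 autosomal summits (37.7%), a difference of -8.07 points (95% interval -13.5 to -2.30; Fisher's exact test, adjusted p = 0.016). The replicates' own lists gave differences of -6.44, -4.15 and -7.59 points (mean -6.06 ± 1.75, SD, n = 3). CTGCGTCTC lay at 21 X summits (6.23%), against 143 autosomal ones (12.3%), a difference of -6.06 points (-8.99 to -2.49; Fisher's exact test, adjusted p = 0.0043), and the replicates gave -3.40, -1.17 and -5.79 points (mean -3.45 ± 2.31, SD, n = 3). Both calls were lost when only peaks of the IDR list or of 2 replicates' highest peaks were used, while the direction held.

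The supply of the motifs differs between the chromosomes. CTGCGTCTC occurs 18.2 times per Mb on X and 49.6 times per Mb on the autosomes, and relative to tiled 101-bp windows of the same chromosomes it was 35.8-fold more frequent at X summits and 28.1-fold at autosomal summits. GAGAGA was found in 4.91% of tiled windows on X and 5.24% on the autosomes, so its share at summits was 6.05-fold on X and 7.204-fold on the autosomes above tiles. Against a window centred 300 bp to the right of each summit, GAGAGA was at the summit alone in 89 X peaks and in the flank alone in 16, while for autosomal peaks these counts were 400 and 47. The ratio of these excesses, X over autosomes, was 0.654, which did not pass the exact test (p = 0.17), and for CTGCGTCTC it was 0.447 (p = 0.30). With the flank to the left instead, the ratios were 0.840 for GAGAGA and 0.887 for CTGCGTCTC, and neither passed. With the flank to the right and the first 3000 peaks, the GAGAGA ratio was 0.578 and passed (exact test, p = 0.0093). With the IDR peaks it was 1.06 and did not pass, and the cause was not tested.

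The GA hexamer difference was uneven over annotation classes. In promoters, 57 of 160 X peaks (35.6%) held it, against 190 of 620 autosomal peaks (30.6%). In intergenic sequence it was in 26 of 97 X peaks (26.8%), against 153 of 281 autosomal peaks (54.4%), and in introns in 12 of 57 X peaks (21.1%), against 73 of 196 (37.2%). Over all summits outside promoters it was in 43 of 177 X peaks (24.3%), against 249 of 543 autosomal peaks (45.9%), a difference of -21.6 points (Fisher's exact test, adjusted p = 3.2e-06), where all peaks together gave -8.07. In promoters the values ran the other way, and the difference between classes was not itself tested. The longest unbroken GA run of any X window, searched 100 bp on each side of the summit, was at X139, near the casein kinase gene kin-20, with 69 bases. Runs of 12 or more bases were in 16 X windows (4.75%), against 95 autosomal windows (8.17%).

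**Figure D4:**
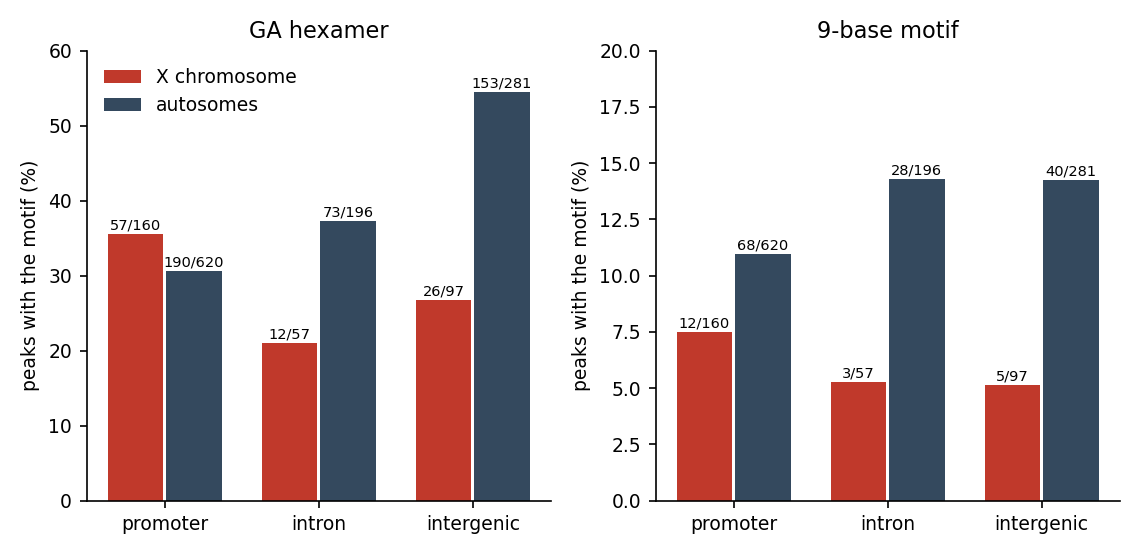
Percentage of X peaks (red) and autosomal peaks (dark) with the GA hexamer GAGAGA (left) and the 9-base motif CTGCGTCTC (right) within 50 bp of the summit, by annotation class; fractions above the bars are peaks with the motif over all peaks of the class. For the GA hexamer X stands at 35.6% against 30.6% in promoters and at 26.8% against 54.4% in intergenic sequence.

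The remaining motifs did not separate X from autosomal peaks. The GATA motif WGATAR (W is A or T, R is A or G) was at 18.4% of X summits and 20.7% of autosomal ones (difference -2.32 points, 95% interval -6.81 to 2.68, Fisher's exact test, adjusted p = 0.48). In the flanks it was at 25.5% on X and 22.5% on the autosomes. The E-box CACGTG was at 6.23% of X and 4.64% of autosomal summits (1.59 points, -0.934 to 4.87, Fisher's exact test, adjusted p = 0.34), and TATAAA at 4.45% of X and 4.47% of autosomal summits (-0.020 points, -2.22 to 2.93). A match, or the lack of one, describes the letters of these windows and not the binding of any factor. Of the 337 X peaks, 126 held at least 1 of GAGAGA, CTGCGTCTC and GCGCAGGG, and 211 held none. The motifs seldom met: 1 X peak held GCGCAGGG with GAGAGA, 1 held it with CTGCGTCTC (X23) and 4 held GAGAGA with CTGCGTCTC.

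**Figure D5:**
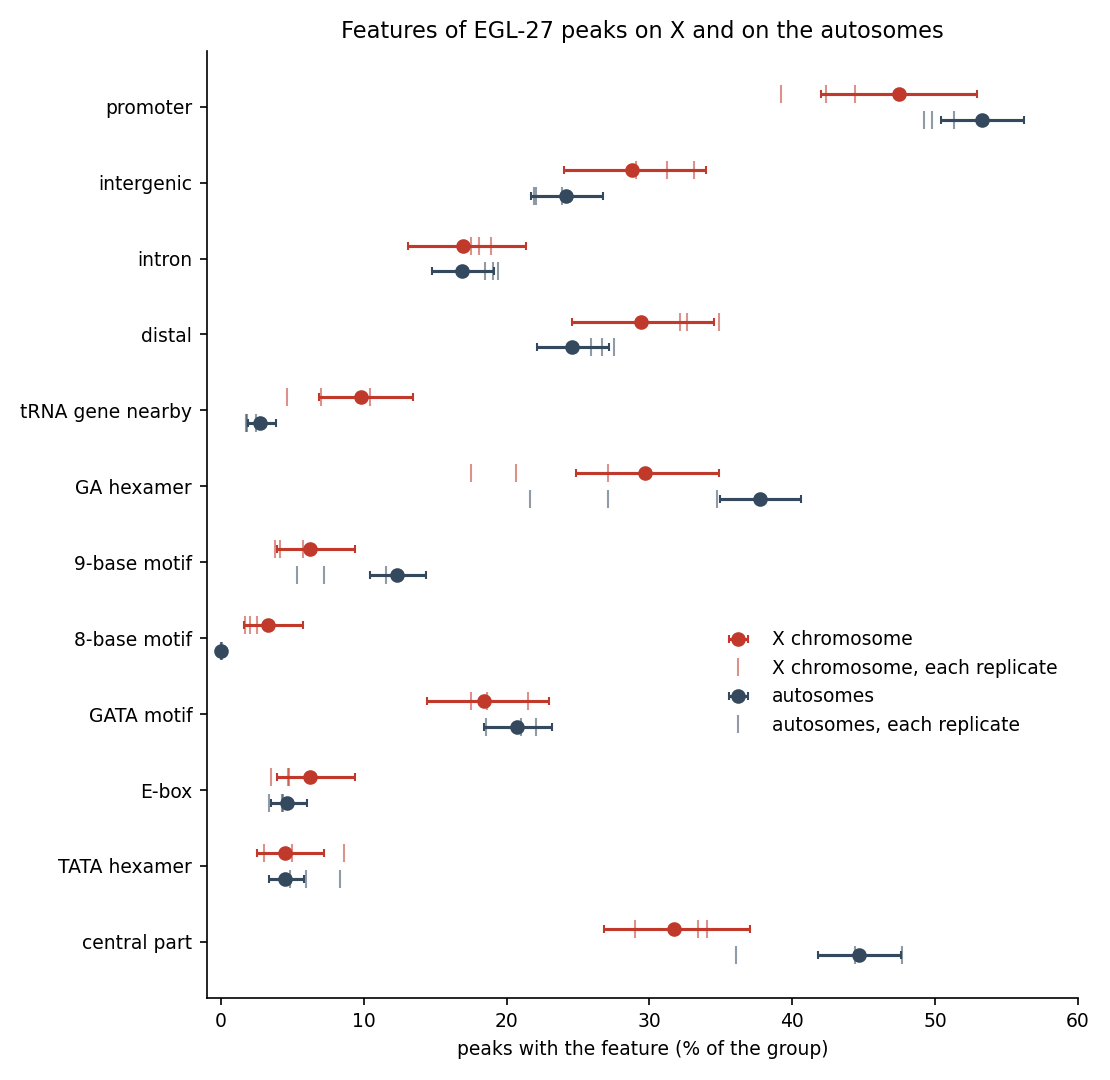
Percentage of X peaks (red, upper of each pair) and autosomal peaks (dark, lower) with each of the 12 features, with exact 95% binomial intervals; thin marks are the values in each replicate's own 1500 highest peaks. The 8-base motif is GCGCAGGG, the 9-base motif is CTGCGTCTC, distal means over 2000 bp from a protein-coding 5′ end, and X is higher for tRNA genes (9.79% against 2.75%) and lower for the central 33.3% of the chromosome, marked central part (31.8% against 44.7%).

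None of the 4 shares by annotation passed the test between X and autosomal peaks. Promoters, which reach from 1000 bp before the 5′ end of a protein-coding transcript to 500 bp after it, held 160 X summits (47.5%), against 620 autosomal summits (53.3%), a difference of -5.83 points (95% interval -11.8 to 0.222, Fisher's exact test, adjusted p = 0.13). Promoters make up 26.8% of X sequence and 33.0% of autosomal sequence, so the promoter share was 1.77-fold above sequence on X and 1.61-fold on the autosomes. Intergenic summits were 28.8% on X and 24.2% on the autosomes (4.62 points, -0.611 to 10.2, Fisher's exact test, adjusted p = 0.13), where intergenic sequence is 29.2% of X and 19.98% of the autosomes. Distal summits were 29.4% on X and 24.6% on the autosomes (4.79 points, -0.485 to 10.4, Fisher's exact test, adjusted p = 0.13), and intronic summits were 16.9% in both. For promoter, intergenic and distal shares all 3 replicates' own lists had the sign of the pooled difference, with means of -8.12 ± 2.41, 8.51 ± 3.03 and 6.52 ± 0.763 points (SD, n = 3). With the first 3000 peaks these 3 differences passed the test, at -9.02, 4.62 and 4.98 points. Keeping only summits in the highest peaks of both other replicates gave a promoter difference of -0.653 points without replicate 2 (Fisher's exact test, adjusted p = 0.92), -7.39 without replicate 1 and -7.22 without replicate 3, none of which passed.

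Along the chromosome, X peaks were less central than autosomal peaks. The central 33.3% of the length held 107 X summits (31.8%), against 520 autosomal summits (44.7%), a difference of -12.96 points (95% interval -18.5 to -7.08; Fisher's exact test, adjusted p = 7.8e-05). In the replicates' own lists it was -10.4, -7.11 and -14.2 points (mean -10.6 ± 3.57, SD, n = 3). Keeping only summits in the highest peaks of 2 replicates gave -9.77 points without replicate 2 and -10.0 points without replicate 3, which no longer passed Fisher's exact test (adjusted p = 0.20 and 0.28), and -12.5 points without replicate 1, which passed. Of protein-coding 5′ ends, 36.4% are in the central part on X, against 36.8% to 40.9% on the autosomes. Chromosome V, with 36.8% of its 5′ ends there, had 52.3% of its kept peaks there, the highest share of any chromosome. Whether peak position follows gene position was not tested. The parts of X before and after the central one held 100 and 130 summits. Over the 17 full 1-Mb bins of X the count ran from 10 to 29 with a median of 19, and the bin with the most began at 14 Mb. The 11 peaks with GCGCAGGG ran from 0.807 to 14.5 Mb, with gaps of 538 to 2283 kb between neighbours.

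Many X peaks had a neighbour. Another kept summit lay within 5000 bp of 127 X summits (37.7%), against 403 autosomal summits (34.7%). Grouping X summits within 5000 bp of the next gave 48 groups, 16 of them with 3 or more. The largest had 10 summits within 13634 bp around mdl-1, a Mad-family bHLH factor, with signals from 22.7 to 93.4; its promoter peak X25 had a pooled signal of 78.0 and replicate signals of 8.81, 25.7 and 44.1. Around sma-9 there were 6 summits within 5981 bp, with signals from 26.2 to 130.6. Groups of 5 lay beside mxl-3, a Max-like partner factor (28.4 to 90.9), and kin-20 (23.1 to 85.0). Some neighbours are not separate in the replicates: X5 and X96, upstream of sma-9, fell inside the same peak in replicates 1 and 2.

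Of the 2731 protein-coding genes on X, 159 (5.82%) had a kept summit in the promoter, against 770 of 17242 autosomal genes (4.47%) and 4.65% of all genes. The gene lists were drawn up with earlier results of these data known, so their counts are a description. Of 23 nuclear hormone receptor genes on X, 9 were bound; the strongest were nhr-48 (75.2), nhr-1 (52.9), nhr-32 (49.2), nhr-255 (38.3), nhr-3 (29.6) and nhr-40 (25.5). The first of these, nhr-48, had signals of 18.5, 24.6 and 33.1 in replicates 1, 2 and 3. The summit of the nhr-255 peak, X122, was also 51 bp from the tRNA gene ZK678.t1. Nuclear hormone receptors are transcription factors, many of them bound by lipids, whose family is greatly expanded in nematodes.

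Among 16 developmental regulators on X, 5 were bound. After puf-9 these were sma-9 at an inner 5′ end (44.2), the intestinal GATA factor elt-2 (24.5), the fibroblast growth factor egl-17 (23.5) and the receptor nhr-25 (23.1), an epidermal regulator. The elt-2 peak was listed in replicate 3 only, with a signal of 15.1. Unbound ones were lin-14, lin-15B, lin-18, mig-13, unc-3, unc-6, vab-3, ceh-14, elt-3, elt-4 and med-1. None of the 18 ceh homeobox genes, 27 cuticle collagen genes, 15 potassium channel genes and 7 acetylcholine receptor genes on X was bound. With 5.82% of all X genes bound, lists of this size would hold few or no bound genes, and nothing is read from these counts. Of 34 neuropeptide genes 1 was bound, ins-39 (41.5), through a peak with GCGCAGGG. Of 2 ribosomal protein genes on X, rpl-11.2 was bound (47.6; replicate signals 11.1, 25.6 and 18.1). Of 72 microRNA genes matched on X, let-7 not among them, mir-54, mir-55 and mir-56 were bound, all by X27 (77.4; replicate signals 19.1, 12.96 and 45.3).

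Of the genes that count X chromosomes, none of the 4 looked up had a promoter peak, where 5.82% of all X genes had one. The X signal elements sex-1, fox-1 and ceh-39, which measure X dose in the early embryo, and their target xol-1 had none, and the nearest members lay 7938, 16099, 215370 and 4898 bp from their 5′ ends. The element sex-2 was not matched in the annotation and was not looked up. For xol-1 that member was X14. Of the genes of the dosage compensation complex, 2 are on X: sdc-1 was bound (28.4), and sdc-2, which directs loading onto X, was not, with the nearest member 83366 bp away. The sdc-1 peak was not listed in replicate 1 and had signals of 13.6 and 10.8 in replicates 2 and 3.

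The lookup in the replicates gave X and autosomal shares that were close to those of all 1500 peaks. The summit lay inside 1 of the 1500 highest peaks of replicates 1, 2 and 3 for 153, 182 and 245 X peaks (45.4%, 54.0% and 72.7%), against 46.3%, 49.5% and 67.6% of autosomal peaks, where all 1500 gave 46.1%, 50.5% and 68.7%. All 3 replicates' highest peaks held 83 X summits (24.6%) and 236 autosomal summits (20.3%), where all 1500 gave 21.3%. The full relaxed lists of all 3 held 225 X summits (66.8%) and 804 autosomal ones (69.1%), where all 1500 gave 68.6%. The IDR list held 169 X peaks (50.1%) and 535 autosomal peaks (46.0%), where all 1500 gave 46.9%. The pooled list was made from these replicates, so the lookups describe how evenly each contributed and were not tested.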

How the data were processed

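Peak lists of EGL-27 ChIP-seq from 3 biological replicates of L1 worms were analysed. Per the library notes the authors deposited, every list was made from alignments and 1 shared control, and relaxed lists keep background for the IDR procedure; peaks were called per replicate and on the pooled replicates. Aligner, peak caller and IDR threshold: not given in the sources used here. For each peak the authors deposited a signal value, used for ranking and description inside its own list, and a −log10 q-value, which was not used. Read depth is unknown, and all intervals cover counting error only.

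The pooled ce11 list held 23218 peaks, of which 1 was mitochondrial, and the IDR list 705. Summits were annotated with WBcel235 and Ensembl release 115. Classes were assigned in the order promoter, coding exon, untranslated region, intron, non-coding gene and intergenic. The 12 features were compared by Fisher's exact test, two-sided, with Benjamini-Hochberg adjustment, in Python 3.11.15 with SciPy 1.17.1, after a test on simulated data; differences have Newcombe 95% intervals. A gene was bound when a kept summit lay in its promoter. A summit window counted as repeated when over 50% of its 32-mers recur in the genome.

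The peaks named are the 15 X peaks of highest signal, the 3 highest of each class with 10 or more members, listed genes with a peak (at most 6 a list), those at the threshold, and, chosen after their values were seen, the groups, tRNA neighbours and carriers of GCGCAGGG. The members and lists were chosen with earlier results of these data known. Per-replicate rankings and the removal of repeated sequence were alternatives added after the data were seen.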

Additional observations from a re-analysis of the deposited data

How the results depend on the processing

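No paired analysis was possible because all samples form a single group. Leaving out a replicate means here that only pooled peaks with a summit in the highest peaks of both other replicates were kept. The pooled ranking was not remade and still used all replicates. Of 155 recomputed values, 105 kept direction and side of the threshold; the cause of the others was not tested. The GCGCAGGG and tRNA differences passed under every alternative tried, at 1.64 to 8.51 and 2.83 to 9.40 points. In points, X minus autosomes, the promoter difference passed with 3000 peaks (-9.02), in replicates 1 and 2 alone (-9.98, -8.99) and with 2000-bp promoters (-8.36), and it was -7.39 to -0.653 leaving out replicates, lowest in size without replicate 2. The intergenic difference passed with 3000 peaks (4.62) and in replicates 1 and 2 alone (11.1, 9.29). The distal difference passed with 3000 peaks (4.98) and in replicate 1 alone (7.38). The GAGAGA difference was -21.6 outside promoters (passing) and no longer passed for IDR peaks (-7.67), the strongest peak of each group (-4.31), 100-bp windows (-6.64) or replicate 2 alone (-4.15), and CTGCGTCTC for IDR peaks (-7.54) or replicate 2 alone (-1.17). Leaving out each replicate in turn left 408 to 521 peaks and gave GAGAGA -10.7 to -7.10, CTGCGTCTC -6.76 to -4.86 and the central 33.3% -12.5 to -9.77, of which only the central share without replicate 1 passed. The remaining differences never passed, and changed sign. Leaving out replicates, introns gave -4.41 to -0.658, WGATAR -2.20 to 0.313 and TATAAA -3.81 to 0.337. Introns gave -3.18 for IDR peaks and -1.88 and -0.949 in replicates 2 and 3. WGATAR gave 0.200 in 100-bp windows and 0.491 in replicate 1, and CACGTG -0.256 outside promoters and -0.750 in replicate 1. TATAAA gave 0.995 for IDR peaks, 1.34 for 3000 peaks, 0.192 in 100-bp windows, 0.284 outside promoters and 0.251 in replicate 2. The GAGAGA excess ratio was 1.06 for IDR peaks, 0.578 for 3000 peaks (passing) and 1.58 to 3.75 leaving out replicates; the CTGCGTCTC ratio could not be computed without replicate 1 or replicate 3. The X share was 25.2% of the first 500 peaks and 23.0% to 25.8% leaving out replicates, X summits within 100 bp of a summit in all 3 replicates were 46.9%, and X summits with a neighbour within 2000 bp 22.8%. Depth is unknown, so the precision of a single signal is too.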
